A study of Mus musculus with 2 samples.

Results

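Fc receptors bind the constant part of antibodies and so tie antibodies to the cells that carry the receptor. The genes described here are those of the IgG receptors Fcgr1, Fcgr2b, Fcgr3 and Fcgr4, the neonatal Fc receptor Fcgrt, the low-affinity IgE receptor Fcer2a (CD23) and the IgM receptor Fcmr. They were compared on the arrays of a pair of sorted mouse bone marrow populations. Members were the probe sets whose platform annotation named exactly 1 gene, that gene being one of these 7. This gave 6 probe sets for 6 of the 7 genes, among 21780 single-gene probe sets for 19935 genes in all. No listed probe set named Fcgrt, so Fcgrt was not analysed here.

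The study compared RANKhigh c-Fmslow with RANKlow c-Fmshigh cells of ddY mice, an outbred strain, aged 6 weeks; RANK receives the osteoclast factor RANKL, and c-Fms is the receptor for M-CSF. Both populations were sorted by flow cytometry from density-gradient mononuclear marrow cells stained with a PE-conjugated antibody to RANK and a biotin-conjugated antibody to c-Fms. The staining protocol in the labels does not mention a block of Fc receptors. Each population was measured on 1 array and the number of mice behind it is not stated, so no value below has a replicate error or a test.

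In mouse myeloid cells, Fcgr1, Fcgr3 and Fcgr4 are activating IgG receptors that signal through the shared γ chain encoded by Fcer1g, whose ITAM recruits the kinase Syk. Fcgr2b is the inhibitory IgG receptor, carries an ITIM that recruits the phosphatase SHIP-1, and is the IgG receptor of B cells as well as of myeloid cells. CD23 and the IgM receptor are best known on B cells. In osteoclast precursors, γ chain and DAP12 signals act as costimulation of RANK.

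The values are array intensities on a linear scale, and differences are log2 intensities in RANKhigh c-Fmslow cells minus RANKlow c-Fmshigh cells. A probe set's intensity depends on its probes, so levels were compared between the arrays and not between genes. The background guide, chosen after the data had been seen, was taken from the intensities of 1189 odorant and pheromone receptor genes. Whether any of these genes is expressed in the sorted cells was not tested. The 95th percentile of these genes was 83.8 on the RANKhigh c-Fmslow array and 81.8 on the RANKlow c-Fmshigh array. The median intensity over all probe sets was 94.5 on the RANKhigh c-Fmslow array and 92.6 on the RANKlow c-Fmshigh array. Of the sort antigens, the c-Fms gene Csf1r stood at 164 in RANKhigh c-Fmslow cells and 821 in RANKlow c-Fmshigh cells. The RANK gene Tnfrsf11a, at 104 in RANKhigh c-Fmslow cells and 119 in RANKlow c-Fmshigh cells, was not higher in the cells sorted for RANK.

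The B cell type receptors and the activating IgG receptors differed in opposite directions. Fcer2a and Fcmr were more than 4-fold higher in RANKhigh c-Fmslow cells, Fcgr1 was 2.21-fold lower, Fcgr3 and Fcgr4 were lower by less than 2-fold, and Fcgr2b was nearly equal. All 6 genes passed the level filter, a value of at least 93.6, the median over both arrays, in at least 1 population. Of the 6, 2 were at least 2-fold higher in RANKhigh c-Fmslow cells, where 4.34% of the 11089 genes that passed the filter were, and 1 was at least 2-fold lower, where 4.26% were. In either direction this was 3 of 6, beside 8.59% of all genes that passed. The median log2 difference was -0.71 over the 4 IgG receptor genes and -0.01 over all 11089 genes.

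**Figure D1:**
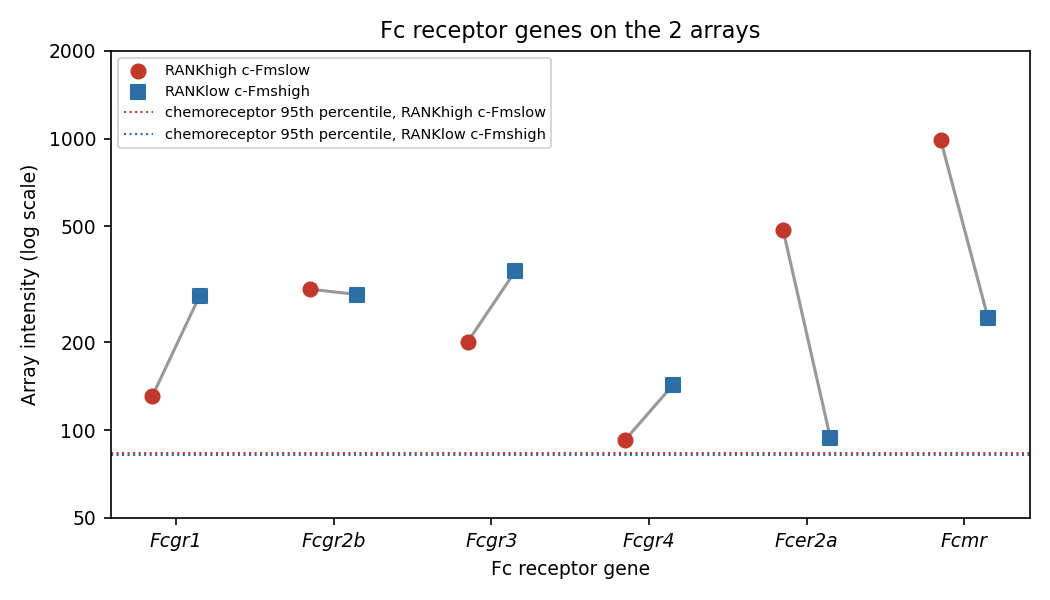
Array intensity (log axis) of the 6 measured Fc receptor genes, 1 array per population, with RANKhigh c-Fmslow cells as circles and RANKlow c-Fmshigh cells as squares; dotted lines mark the background guide on each array (83.8 and 81.8). Fcgr1, Fcgr3 and Fcgr4 are lower in RANKhigh c-Fmslow cells, Fcgr2b is nearly level, and Fcer2a and Fcmr are higher.

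Fcgr1, which encodes the high-affinity IgG receptor CD64, had an intensity of 131 in RANKhigh c-Fmslow cells and 289 in RANKlow c-Fmshigh cells. The log2 difference was -1.14. Both values lay above the background guide, at 1.56 times its level in RANKhigh c-Fmslow cells and 3.53 times in RANKlow c-Fmshigh cells. Among the 11089 genes, 350 (3.16%) were lower by as much or more. With no replicates, the only measured yardstick was the disagreement between probe sets of 1 gene on these arrays. Over 558 genes with exactly 2 probe sets the median gap between their log2 differences was 0.20 and the 90th percentile 0.67. With a pseudocount of 64 the difference of Fcgr1 was -0.86, short of 2-fold. As deposited it was larger than both gap figures, which do not cover variation between mice, sorts or arrays.

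The promoter window of Fcgr1 is shown because it, those of Fcgr3 and Fcgr4, and those of the B cell type receptors were searched for the same motifs. Each window runs from 250 bases before to 50 bases after an annotated start, from RefSeq on GRCm38.p6, and is printed 5′ to 3′ on the gene's strand. Capitals mark every match, on either strand, to GAGGAA (the core of a PU.1-type purine box, which reads TTCCTC on the other strand), TTCNNNGAA (STAT), TTCNNNNGAA (STAT6), GAAANNGAAA (interferon regulatory factors), CCCNNGGGA (EBF) or CAGGTG (an E box). No matches overlapped one another. In the Fcgr1 window the capitals are a STAT match beginning 109 bases before the start and a purine box beginning 55 bases before it.
Fcgr1, chr3:96293920-96294219, minus strand: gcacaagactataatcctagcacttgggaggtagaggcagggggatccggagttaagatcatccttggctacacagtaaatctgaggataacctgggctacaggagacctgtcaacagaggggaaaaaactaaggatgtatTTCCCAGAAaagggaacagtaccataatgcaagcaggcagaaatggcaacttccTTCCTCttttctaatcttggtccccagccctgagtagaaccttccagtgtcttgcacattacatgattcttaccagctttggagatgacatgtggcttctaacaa

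Fcgr3, which encodes the low-affinity activating receptor CD16, stood at 201 in RANKhigh c-Fmslow cells and 350 in RANKlow c-Fmshigh cells. It was 1.74-fold lower in RANKhigh c-Fmslow cells, with a log2 difference of -0.80, and 780 genes (7.03%) were at least as far down. Fcgr4, which encodes a receptor for IgG2 subclasses in mice, stood at 92.7 in RANKhigh c-Fmslow cells and 142 in RANKlow c-Fmshigh cells, a log2 difference of -0.62 (1.54-fold lower). That difference lay within the 90th percentile gap between probe sets of 1 gene (0.67), and the Fcgr4 value in RANKhigh c-Fmslow cells was only 1.11 times the background guide. At a threshold of 1.5-fold, Fcgr1, Fcgr3 and Fcgr4 were all counted as lower, 3 of 6 genes, beside 12.4% of all genes that passed. Those at least 1.5-fold higher were 2 of 6, beside 10.5%.

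The windows of Fcgr3 and Fcgr4 also held the purine box close to the start. It begins 6 bases before the first of the annotated starts of Fcgr3 and 22 bases before that of Fcgr4. The Fcgr4 window also holds a match to the interferon regulatory factor motif, 73 bases before the start. RefSeq lists another Fcgr3 start close by, whose window overlaps the one shown and holds the same purine box.
Fcgr3, chr1:171059354-171059653, minus strand: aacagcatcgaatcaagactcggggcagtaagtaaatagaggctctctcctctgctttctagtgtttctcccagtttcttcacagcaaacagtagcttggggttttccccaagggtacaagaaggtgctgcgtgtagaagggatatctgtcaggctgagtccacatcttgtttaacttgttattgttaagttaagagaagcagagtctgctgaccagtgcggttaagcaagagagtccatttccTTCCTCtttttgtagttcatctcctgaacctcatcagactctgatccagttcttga
Fcgr4, chr1:171018676-171018975, plus strand: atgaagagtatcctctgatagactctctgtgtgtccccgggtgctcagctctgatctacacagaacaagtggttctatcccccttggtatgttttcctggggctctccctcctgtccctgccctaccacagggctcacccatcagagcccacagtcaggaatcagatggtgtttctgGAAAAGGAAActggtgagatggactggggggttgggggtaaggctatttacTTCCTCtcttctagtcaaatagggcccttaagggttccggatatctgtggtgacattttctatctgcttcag

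Fcgr2b, the inhibitory IgG receptor, stood at 304 in RANKhigh c-Fmslow cells and 292 in RANKlow c-Fmshigh cells. The log2 difference of 0.06 was smaller than the median gap between probe sets of 1 gene (0.20). Its value was 3.63 times the background guide in RANKhigh c-Fmslow cells and 3.57 times in RANKlow c-Fmshigh cells. On these single arrays the log2 difference of Fcgr2b exceeded that of Fcgr1 by 1.20, that of Fcgr3 by 0.86 and that of Fcgr4 by 0.68. The last of these was close to the 90th percentile gap between probe sets of 1 gene (0.67). The Fcgr2b window held no match to any of the searched motifs. Fcgr2b, Fcgr3 and Fcgr4 are related in sequence, and whether their probe sets also bound each other's transcripts was not tested.

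Fcer2a, which encodes CD23, had 487 in RANKhigh c-Fmslow cells and 94.1 in RANKlow c-Fmshigh cells. It was 5.18-fold higher in RANKhigh c-Fmslow cells, a log2 difference of 2.37, and 42 genes (0.379%) were at least as far up. Its value in RANKlow c-Fmshigh cells was 1.15 times the background guide. Fcmr, the receptor for the Fc part of IgM, stood at 989 in RANKhigh c-Fmslow cells and 243 in RANKlow c-Fmshigh cells, 4.08-fold higher (log2 difference 2.03). For Fcmr 78 genes (0.703%) were at least as far up, and the RANKlow c-Fmshigh value was 2.97 times the guide, so its transcript was measured above background in both populations. The widest separation among the 6 genes was between Fcgr1 and Fcer2a, whose log2 differences, that of Fcgr1 minus that of Fcer2a, gave -3.51.

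RefSeq lists 3 starts for Fcer2a, and the window shown is the 1 of its 3 windows that held a match. Its capitals are E boxes beginning 244 and 99 bases before the start and a STAT6 match beginning 168 bases before it. STAT6 is the factor through which interleukin-4 is known to induce CD23 in B cells. The Fcmr window holds a purine box beginning 36 bases before the start and an E box beginning 36 bases after it.
Fcer2a, chr8:3690812-3691111, minus strand: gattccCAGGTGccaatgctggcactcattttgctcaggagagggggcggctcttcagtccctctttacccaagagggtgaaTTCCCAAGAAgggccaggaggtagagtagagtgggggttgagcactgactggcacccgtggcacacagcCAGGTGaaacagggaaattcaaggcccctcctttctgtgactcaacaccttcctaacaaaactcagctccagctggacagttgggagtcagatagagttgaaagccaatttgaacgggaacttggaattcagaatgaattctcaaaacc
Fcmr, chr1:130865527-130865826, plus strand: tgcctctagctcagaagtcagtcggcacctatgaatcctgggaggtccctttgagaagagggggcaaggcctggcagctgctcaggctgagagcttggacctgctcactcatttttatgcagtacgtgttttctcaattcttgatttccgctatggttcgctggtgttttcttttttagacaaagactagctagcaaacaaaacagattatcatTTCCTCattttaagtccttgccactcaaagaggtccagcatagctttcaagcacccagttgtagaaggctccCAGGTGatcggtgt

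Over all RefSeq windows the searched letters were common. GAGGAA was found for 4 of the 6 measured receptor genes, Fcgr1, Fcgr3 and Fcgr4 and also Fcmr, which differed in the other direction. Any of a gene's windows held it for 31.3% of 27025 genes. The share of genes was 9.55% for TTCNNNGAA, found for Fcgr1 alone among the 6, 8.01% for TTCNNNNGAA, found for Fcer2a alone, and 3.99% for GAAANNGAAA, found for Fcgr4 alone. CAGGTG was found for Fcer2a and Fcmr and for 22.6% of all genes. Fcer2a, with 3 windows searched, had more room for a match than a gene with 1, and the shares of genes do not allow for this. Of 32851 windows, 6.95% held TTCNNNNGAA and 20.2% held CAGGTG. CCCNNGGGA was found for 0 of the 6 and for 7.48% of all genes. A match describes letters in the window and was not tested as a binding site.

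**Figure D2:**
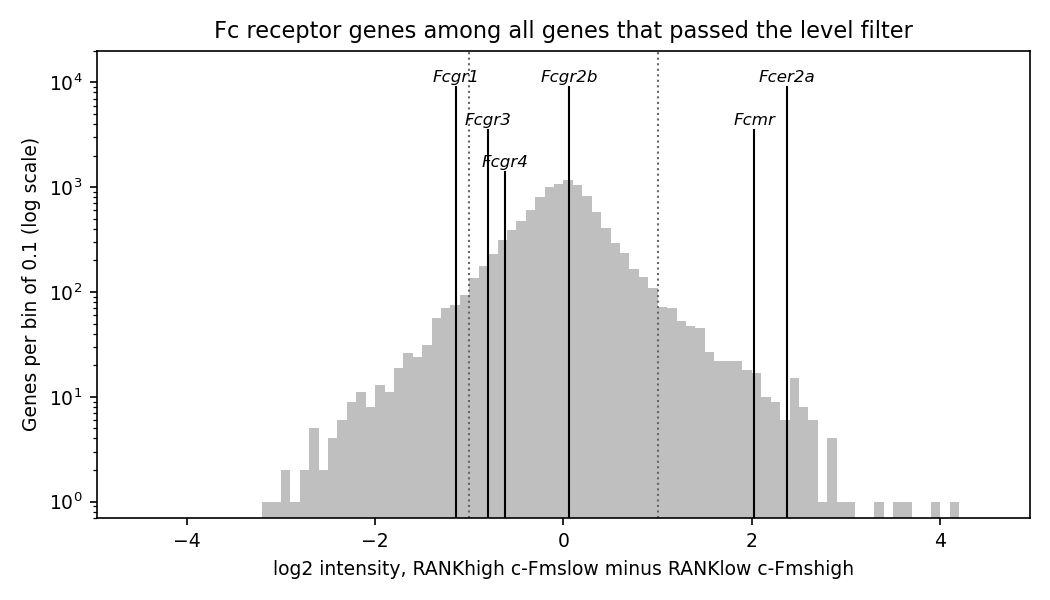
Histogram of the log2 difference (RANKhigh c-Fmslow minus RANKlow c-Fmshigh) of the 11089 genes that passed the level filter, in bins of 0.1 with the number of genes on a log axis; dotted lines mark 2-fold. Black lines mark the 6 Fc receptor genes, from Fcgr1 at -1.14 to Fcer2a at 2.37, with Fcgr2b near the centre.

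Neighbouring receptor genes differed in different directions. On the GRCm38.p6 assembly, Fcgr2b, Fcgr4 and Fcgr3 are consecutive protein-coding genes of chromosome 1, and the Fc receptor-like genes Fcrla and Fcrlb lie just before them. Within this run Fcrla, which encodes an intracellular B cell protein, was 3.83-fold higher in RANKhigh c-Fmslow cells (590.0 against 154 in RANKlow c-Fmshigh cells), while Fcgr4 and Fcgr3 were lower and Fcgr2b was level. Fcrlb stood at 105 in RANKhigh c-Fmslow cells and 95.3 in RANKlow c-Fmshigh cells. Beyond Fcgr3, the mitochondrial gene Sdhc stood at 492 in RANKhigh c-Fmslow cells and 580 in RANKlow c-Fmshigh cells.

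Fcmr lies next to the genes of the other receptors for polymeric antibody, Pigr and Fcamr, and these did not share its difference. Pigr, which carries IgA and IgM across epithelia, stood at 83.4 in RANKhigh c-Fmslow cells and 73.5 in RANKlow c-Fmshigh cells. Fcamr, the Fc receptor for IgA and IgM, stood at 55.3 in RANKhigh c-Fmslow cells and 56.3 in RANKlow c-Fmshigh cells. Neither gene exceeded the background guide on either array. Fcer2a lies among C-type lectin genes. A near neighbour, the dendritic cell lectin gene Cd209a, differed the other way, at 76.6 in RANKhigh c-Fmslow cells and 332 in RANKlow c-Fmshigh cells, at least 3.97-fold lower. The RANKhigh c-Fmslow value of Cd209a was below the background guide, so that its fold is a bound taken against the guide. Other near neighbours of Fcer2a above the guide on both arrays were less than 2-fold apart. Their log2 differences ran from -0.52 (Mcemp1) to 0.37 (Stxbp2), with the adjacent Trappc5 at -0.04 and the lectin gene Cd209d at -0.17.

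**Figure D3:**
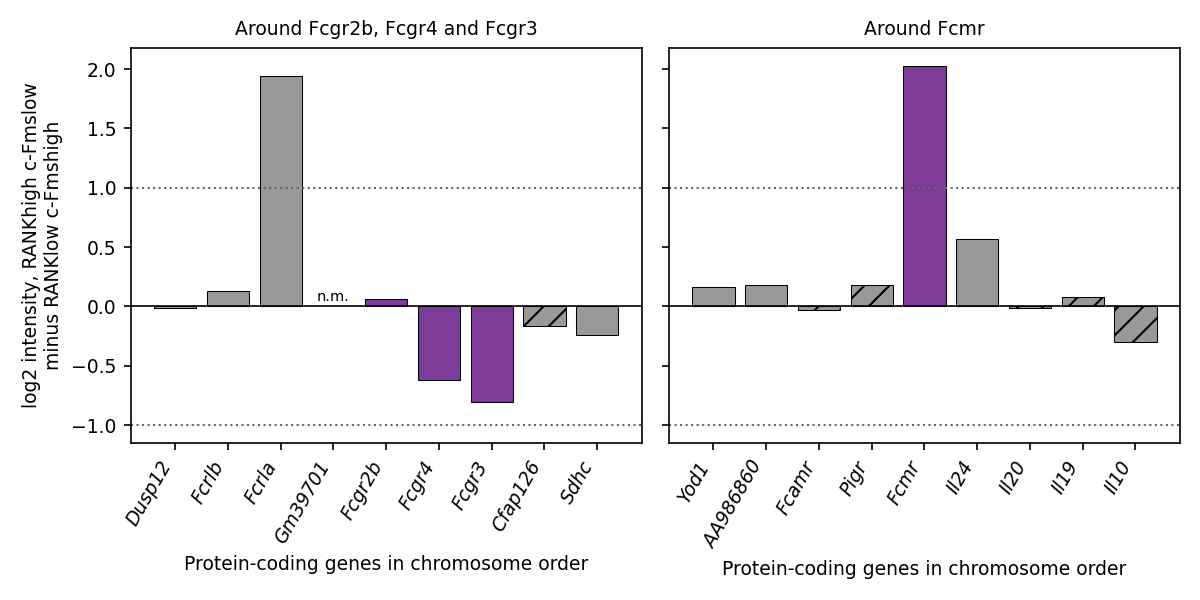
Log2 difference (RANKhigh c-Fmslow minus RANKlow c-Fmshigh) of protein-coding genes in chromosome order around Fcgr2b (left) and Fcmr (right), with Fc receptor genes described here in purple, n.m. for a gene with no single-gene probe set, hatching where both values lay below the background guide, and dotted lines at 2-fold. Fcrla (1.94) and Fcmr (2.03) stand above the upper line beside neighbours between the lines.

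Other Fc receptor genes that differed by 2-fold were all higher in RANKhigh c-Fmslow cells. All 11 were measured and 5 passed the level filter. Of these 3 reached 2-fold in that direction and 0 in the other. The 3 were Fcrla, given above, Fcrl1 and Fcer1a. Fcrl1, a B cell surface protein of the Fc receptor-like family, stood at 755 in RANKhigh c-Fmslow cells and 209 in RANKlow c-Fmshigh cells (3.60-fold higher). Fcer1a, the IgE-binding chain of the mast cell and basophil receptor, stood at 172 in RANKhigh c-Fmslow cells and 50.1 in RANKlow c-Fmshigh cells, at least 2.10-fold higher since the lower value was below the guide. Trim21, the cytosolic Fc receptor, was nearly equal at 287 in RANKhigh c-Fmslow cells and 304 in RANKlow c-Fmshigh cells. Fcrl5 and Fcrls lay below the guide on both arrays, and Fcrl6 (87.2 in RANKhigh c-Fmslow cells and 69.7 in RANKlow c-Fmshigh cells) exceeded it on the RANKhigh c-Fmslow array only.

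Of the subunits that Fc receptors need, the γ chain gene was lower and the others were near level or low. Fcer1g, the γ chain that mouse Fcgr1, Fcgr3 and Fcgr4 require for surface expression, stood at 668 in RANKhigh c-Fmslow cells and 1344 in RANKlow c-Fmshigh cells. Its log2 difference of -1.01 put it at the 2-fold line and between those of Fcgr1 (-1.14) and Fcgr3 (-0.80), and it lay between -0.89 and -1.04 under the other settings, short of 2-fold in 4 of them. Cd247, the ζ chain of T and NK cells, stood at 103 in RANKhigh c-Fmslow cells and 92.4 in RANKlow c-Fmshigh cells. Ms4a2, the β chain of the IgE receptor, did not pass the filter (93.0 in RANKhigh c-Fmslow cells and 54.6 in RANKlow c-Fmshigh cells). B2m, the light chain that pairs with Fcgrt and with MHC class I, was level at 5886 in RANKhigh c-Fmslow cells and 6044 in RANKlow c-Fmshigh cells.

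Among 16 measured genes of activating signalling, 3 were lower by 2-fold or more in RANKhigh c-Fmslow cells and 0 were higher by as much, around a median log2 difference of -0.39. The adaptor Lcp2 (SLP-76) stood at 538 in RANKhigh c-Fmslow cells and 1419 in RANKlow c-Fmshigh cells (2.64-fold lower). The exchange factor Vav3 was 2.56-fold lower, the Src family kinase Fgr 2.31-fold lower (log2 difference -0.89 with a pseudocount of 64), and the kinase Prkcd 1.88-fold lower. Syk, named after its value was seen because it binds the γ chain, stood at 633 in RANKhigh c-Fmslow cells and 556 in RANKlow c-Fmshigh cells.

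The 7 genes of inhibitory signalling all passed the filter, and 0 were 2-fold apart, with a median of -0.09. Inpp5d, which encodes SHIP-1, the phosphatase recruited by Fcgr2b, stood at 764 in RANKhigh c-Fmslow cells and 1060 in RANKlow c-Fmshigh cells (log2 difference -0.47). The phosphatase gene Ptpn6 (SHP-1) had a difference of -0.30, Dok1 of -0.38 and Dok3 of 0.19. These differences were, like that of Fcgr2b, within the 90th percentile gap between probe sets of 1 gene.

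Genes of the ligands and of CD23's partners were also examined. Of 10 immunoglobulin genes 4 had a single-gene probe set and 3 passed the filter. Igha, the IgA heavy chain, stood at 477 in RANKhigh c-Fmslow cells and 146 in RANKlow c-Fmshigh cells (3.27-fold higher), and Jchain, which joins IgM and IgA polymers, was 2.46-fold higher. Ighm, the heavy chain of the ligand of Fcmr, stood at 168 in RANKhigh c-Fmslow cells and 107 in RANKlow c-Fmshigh cells, 1.57-fold higher. Cr2, the complement receptor CD21 that binds CD23, stood at 180.3 in RANKhigh c-Fmslow cells and 85.9 in RANKlow c-Fmshigh cells (2.10-fold higher, with a log2 difference of 0.70 with a pseudocount of 64), and Adam10, the protease that sheds CD23, at 768 in RANKhigh c-Fmslow cells and 673 in RANKlow c-Fmshigh cells.

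Cell type markers also differed between the arrays, and their part in the receptor differences was not tested. In sorted populations measured in bulk, fewer cells of a type and less RNA per cell cannot be told apart. Fcer2a and Fcmr were higher beside the mature B cell markers, of which 7 of 8 measured genes were at least 2-fold higher in RANKhigh c-Fmslow cells (median 1.57), and the early B cell markers, of which 10 of 11 were. The mature B cell markers, which include Fcrl1 and Cr2 named above, had a summed intensity of 6069 in RANKhigh c-Fmslow cells and 1912 in RANKlow c-Fmshigh cells. Among them Ms4a1 (CD20) had the largest log2 difference, 2.16, between those of Fcmr (2.03) and Fcer2a (2.37). The other measured mature B cell markers all had smaller differences than Fcmr, from 0.29 to 1.94 (Bank1). None of the measured mature B cell markers lay below the guide on both arrays. Markers of other cells were higher as well. All 8 measured erythroid markers (median 2.43), 5 of 7 eosinophil markers (median 1.87), 4 of 8 T cell markers (median 1.30 over the 6 that passed the filter) and 3 of 8 NK cell markers (median 1.36 over the 5 that passed) reached 2-fold in RANKhigh c-Fmslow cells. Among the eosinophil markers counted, Il5ra was below the guide in RANKlow c-Fmshigh cells, and as a bound it was only at least 1.21-fold higher.

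Fcgr1, Fcgr3 and Fcgr4 were lower beside the monocyte markers, of which 7 of 10 measured genes were at least 2-fold lower in RANKhigh c-Fmslow cells and 0 at least 2-fold higher (median -1.90). The summed intensity of the monocyte markers was 5417 in RANKhigh c-Fmslow cells and 22539.9 in RANKlow c-Fmshigh cells. Macrophages also carry these receptors, and their 12 markers were mixed, with 3 lower and 2 higher by 2-fold or more in RANKhigh c-Fmslow cells (median -0.06 over the 9 that passed the filter). The lower ones were Msr1 (log2 difference -2.42), Adgre1 (-1.70) and Cd68 (-1.42). The higher ones were C1qc (log2 difference 1.58) and Vcam1 (2.64-fold), the second named after its value was seen. Of 7 dendritic cell markers 2 were lower and 1 higher by as much in measured values (median -0.90 over the 5 that passed). Both lower genes, Cd209a and Clec9a, were below the guide in RANKhigh c-Fmslow cells. As bounds, Cd209a was at least 3.97-fold lower and Clec9a only at least 1.63-fold. Mouse neutrophils are known to carry Fcgr3 and Fcgr4 as well. Of the 14 neutrophil markers, 12 were higher in RANKhigh c-Fmslow cells and 2 lower, Mpo (log2 difference -0.55) and Prtn3 (-0.46). Of the 14, 9 were at least 2-fold higher in RANKhigh c-Fmslow cells and 0 at least 2-fold lower (median 1.69). The summed intensity of the 14 was 48284 in RANKhigh c-Fmslow cells and 19818 in RANKlow c-Fmshigh cells. Fcer1a stood beside the markers of basophils and mast cells, of which 4 of 7 reached 2-fold in RANKhigh c-Fmslow cells (median 1.42 over the 6 that passed the filter), with a summed intensity of 3448 in RANKhigh c-Fmslow cells and 997 in RANKlow c-Fmshigh cells.

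**Figure D4:**
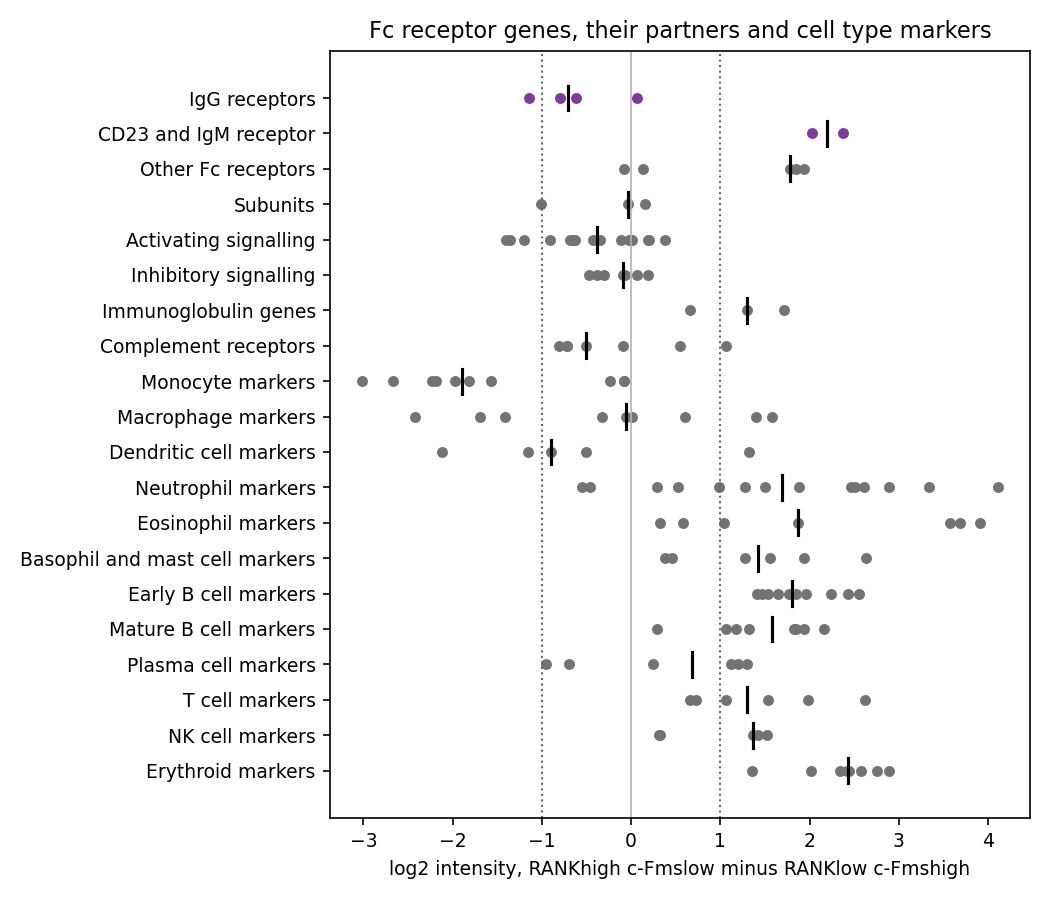
Log2 difference (RANKhigh c-Fmslow minus RANKlow c-Fmshigh) of the genes that passed the level filter, 1 point per gene, in the Fc receptor sets (purple) and in lists of partner genes and cell type markers (grey); black ticks are list medians and dotted lines mark 2-fold. Fcgr1, Fcgr3 and Fcgr4 lie below 0, as do the monocyte markers (median -1.90), Fcgr2b lies at 0.06, and Fcer2a and Fcmr lie above 0, as do the medians of the B cell, granulocyte, plasma cell, T, NK and erythroid lists. The plasma cell markers lie on both sides of 0, from -0.95 to 1.30 (median 0.68).

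With 2 arrays the pattern of a gene is a single difference, so likeness was the gap between log2 differences, over the 134 other list genes that passed the filter. For Fcgr1 the nearest measured value was that of Clec9a, a dendritic cell lectin gene at 61.1 in RANKhigh c-Fmslow cells and 136 in RANKlow c-Fmshigh cells. The first of these was below the guide and its fold is only a bound (at least 1.63-fold lower), so no gap is given for it. The nearest to Fcer2a was Epb42, a red cell membrane skeleton gene (gap 0.03), and the nearest to Fcmr was Klf1, an erythroid transcription factor gene (gap 0.02). These gaps describe 1 difference each and separate no cell types.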

How the data were processed

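The deposited values are linear array intensities, 1 per probe set and sample, for 28815 probe sets on each of 2 arrays. The submitters' processing notes name GCOS 1.4 and RMA, per the labels; what each did, and the genome build, is not given in the sources used here. Background correction and scaling were therefore those of the authors. No further scaling and no pseudocount were applied. Intensities were put on the log2 scale and probe sets of 1 gene averaged. The platform annotation of 2016 named 1 gene for 21780 probe sets and several for 1605, and 5430 were not listed.

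With 1 array per population nothing was tested and no standard error exists, and the number of arrays limits the precision. Genes were counted at 2-fold or more, among those with at least 1 value at or above the median over both arrays (93.6). This rule was tested on simulated data, which cannot supply the variation between mice, sorts or arrays that is missing here. Where the lower value lay below the chemoreceptor guide on its array, the fold is a bound against that guide, and no fold is given where both did. Counts used the measured values and not these bounds.

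Named are all members, all other Fc receptor, subunit and CD23 partner genes, and up to 4 genes per other list with the largest absolute difference. Chromosomal neighbours, Syk, Vcam1, C5ar1, Il5ra, Mpo and Prtn3 were added after their values were seen. Members and lists were chosen with earlier results of these data known. Python 3.11.15, pandas 2.3.3, numpy 2.4.6 and statsmodels 0.14.6 were used.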

Additional observations from a re-analysis of the deposited data

How the results depend on the processing

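The settings changed were the probe set summary, the scaling (median centring, quantile normalization or lowess), a pseudocount of 16 or 64, the level filter and the fold counted; no probe set of several genes named a member, so that setting gave no value. The 2 genes at least 2-fold higher in RANKhigh c-Fmslow cells were counted under every setting run. The count at least 2-fold lower, 1 gene (Fcgr1), was 0 with a pseudocount of 64 and 3 at 1.5-fold, and 1 under the other 8 settings. All 6 differences kept their sign under the 6 settings that recompute values. Fcgr1 ran from -1.17 to -0.86, Fcgr3 from -0.83 to -0.65, Fcgr4 from -0.66 to -0.40, Fcgr2b from 0.03 to 0.11, Fcmr from 1.78 to 2.12 and Fcer2a from 1.80 to 2.39. Only the pseudocount of 64, which by construction shrinks the differences of low values, moved any of them by more than the median gap between probe sets of 1 gene (0.20), and it did so for 4 of the 6. Over all genes the counts of 481 higher and 472 lower among 11089 became 291 and 277 among 11096 with that pseudocount. At 1.5-fold they were 1168 and 1371 among 11089. With the level filter at the 75th percentile of all values they were 385 and 389 among 5723. Of the list genes named, Fcer1g, Cr2, Clec9a, Il5ra and Fgr also fell short of 2-fold under at least 1 setting. These list settings were added after seeing the data. No paired analysis was possible because each population has 1 array. With single arrays, differences between mice, sorts or hybridisations cannot be told apart from differences between the populations.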

Other observations

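Complement receptors take up opsonised particles together with IgG receptors. Of 8 measured genes 7 passed the filter, 1 of them 2-fold or more higher in RANKhigh c-Fmslow cells (Cr2) and 0 lower by as much, around a median of -0.50. The chains of complement receptor 3, Itgam and Itgb2, were both 1.64-fold lower, Itgam at 452 in RANKhigh c-Fmslow cells and 743 in RANKlow c-Fmshigh cells. The anaphylatoxin receptor genes differed in sign, with C3ar1 at 114 in RANKhigh c-Fmslow cells and 198 in RANKlow c-Fmshigh cells and C5ar1 at 247 in RANKhigh c-Fmslow cells and 169 in RANKlow c-Fmshigh cells. C5ar1 was named after its value was seen.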
